A study of Homo sapiens with 2 samples.

Results

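The genes JUN, JUNB, JUND, FOS, FOSB, FOSL1, FOSL2, BATF, MAFF and MAFG encode proteins of the activator protein 1 (AP-1) family and the related small MAF proteins. Their probe sets were selected by name, as all those whose only gene symbol in the platform annotation is one of these 10. This gave 18 probe sets for 10 genes, of 19065 probe sets with 1 symbol for 11963 genes on the array, and no probe set with several symbols holds any of the 10. The signals came from 2 samples of L-428, an established Hodgkin's lymphoma (HL) cell line grown in culture, hybridized to 1 Affymetrix HG_U133A microarray each. In the vector control, cells had been transfected with pcDNA6.2-GW/EmGFP-miR-neg, a vector that the protocol calls empty. For the DUSP5 knock-down, cells were transfected with pcDNA6.2-GW/EmGFP-miR-DUSP5, which expresses an artificial microRNA against the phosphatase DUSP5 in the same vector backbone with a green fluorescent protein. The share of cells that took up the vector and the time from transfection to RNA isolation are not given in the sources used here. With 1 array per condition there is no replicate, and no p-value was computed.

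AP-1 is a dimer of basic leucine zipper proteins that binds DNA through the basic region and pairs through the zipper. JUN proteins can pair with each other or with FOS proteins, which need a JUN partner, and BATF pairs with JUN proteins but has no transactivation domain of its own. JUN and FOS are immediate early genes whose transcription and activity follow the MAP kinases JNK and ERK, and DUSP5 is a nuclear phosphatase that removes the activating phosphates of ERK. Small MAF proteins also lack a transactivation domain and pair with each other or with the CNC and BACH factors at antioxidant response elements. Hodgkin cells are known for strong AP-1 activity with abundant JUN and JUNB.

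In the RefSeq annotation of GRCh38.p14 the 10 genes lie on 7 chromosomes. JUN is at chr1:58780791-58784047 and MAFG at chr17:81918270-81931244. JUNB (chr19:12791486-12793315), JUND (chr19:18279694-18281622) and FOSB (chr19:45467996-45475179) share chromosome 19. FOS (chr14:75278828-75282230) ends 240239 bases before BATF (chr14:75522469-75546992), and JDP2, another gene of this family, lies between them. The remaining genes are FOSL2 at chr2:28392858-28417317, FOSL1 at chr11:65892049-65900545 and MAFF at chr22:38201994-38216511.

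The 250 bases before the annotated start are shown for the 3 JUN genes, because JUN was lower after knock-down and JUNB and the brightest JUND probe set were within their SD, and for MAFF, whose window has a match to the same motif as that of JUND. They are given 5′ to 3′ on the strand of the gene, from RefSeq, with GRCh38.p14 positions, and capitals mark matches to the motifs named after them, of which JUNB has none. MAFF has 2 windows, and the first is shown.

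JUN, chr1:58784048-58784297, minus strand: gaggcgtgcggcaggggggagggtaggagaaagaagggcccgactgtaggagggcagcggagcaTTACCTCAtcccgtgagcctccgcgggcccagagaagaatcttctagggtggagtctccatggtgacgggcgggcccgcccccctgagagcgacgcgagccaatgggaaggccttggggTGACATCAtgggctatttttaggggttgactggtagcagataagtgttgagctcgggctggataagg
JUNB, chr19:12791236-12791485, plus strand: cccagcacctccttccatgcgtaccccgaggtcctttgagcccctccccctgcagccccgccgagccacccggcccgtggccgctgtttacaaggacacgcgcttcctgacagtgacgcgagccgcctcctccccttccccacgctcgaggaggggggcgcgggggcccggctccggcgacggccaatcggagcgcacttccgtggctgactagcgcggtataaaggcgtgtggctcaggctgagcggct
JUND, chr19:18281623-18281872, minus strand: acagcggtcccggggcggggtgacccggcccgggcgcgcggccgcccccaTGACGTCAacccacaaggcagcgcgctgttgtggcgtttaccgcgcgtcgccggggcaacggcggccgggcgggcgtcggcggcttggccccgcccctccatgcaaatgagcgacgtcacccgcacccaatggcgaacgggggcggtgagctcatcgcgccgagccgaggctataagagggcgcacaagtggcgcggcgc
MAFF, chr22:38201744-38201993, plus strand: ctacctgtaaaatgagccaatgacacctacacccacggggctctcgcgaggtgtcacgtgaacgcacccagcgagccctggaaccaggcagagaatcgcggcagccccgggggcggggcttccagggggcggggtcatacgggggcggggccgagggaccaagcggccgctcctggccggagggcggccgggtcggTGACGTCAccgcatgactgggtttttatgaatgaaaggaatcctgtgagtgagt

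Both strands were searched for the AP-1 motif TGANTCA, the cAMP response element TGACGTCA, the JUN promoter elements TGACATCA and TTACCTCA, and the CArG box bound by serum response factor. None of these motifs contains another. The search covered 10 windows for 9 of the genes, with none for FOSL1. The MAFG window (chr17:81927736-81927985) and the second MAFF window (chr22:38202770-38203019) lie inside these genes at the positions given above. For MAFG the bases before the outer start of the gene were therefore not searched. In the JUN window, TGACATCA lies 67 to 60 bases before the start and TTACCTCA 186 to 179 bases before it. The JUND window has TGACGTCA at 200 to 193 bases and the MAFF window at 54 to 47 bases before the start. Of 35116 windows of the same length, 2.37% held TGACATCA, 0.644% TTACCTCA and 1.65% TGACGTCA. TGANTCA, in 6.57% of all windows, and the CArG box, in 1.16%, had no match in the windows of these genes.

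Signal intensities were scaled by the authors on each array to a target of 500, and the median over the 22283 probe sets was 161 in the control and 164 in the knock-down. The targeted gene DUSP5 had signals of 628 and 368, or 58.6% of control. Its log2 ratio, here always knock-down over control, was -0.77 (SD 0.41). The error given for a log2 ratio is the standard deviation (SD) of a single ratio. It was taken from pairs of probe sets reading 1 gene at a like mean signal. It is the square root of the mean squared difference within these pairs, after division by 2. It fell from 1.19 at signals under 100 and 0.73 up to 200, through 0.41 up to 500 and 0.36 up to 1000, to 0.30 up to 3000 and 0.26 above. The spread between cultures is not part of this SD. A gene is called measured where the mean of both signals at its brightest probe set was at least 200. Markers of Hodgkin cells were all measured, 10 of 10, with summed signals of 33989 in the control and 43639 in the knock-down. The markers did not move together. At their brightest probe sets 2 were at least 1.5-fold higher, TNFRSF8 (1724 and 3618) and CCL17 (3022 and 6019). Another 2 were that much lower, FUT4 (756 and 317) and CD86 (2166 and 1081). The part of these markers in the results below was not tested. None of 6 T cell markers, with summed signals of 349.8 and 525, and none of the 4 myeloid markers on the array, with 117 and 272, was measured. Of the 5 B cell markers on the array, with summed signals of 663 and 587, the B lineage factor PAX5 was measured, as 268 and 211.

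JUN gave the highest signal of the 10 genes in vector control cells and the FOS genes the lowest. Ranked by the brightest probe set of each gene, the order in the control was JUN (6449), JUND (4745), BATF (2175), JUNB (1571), MAFG (1297), MAFF (202), FOSL2 (82.1), FOSB (50.5), FOSL1 (22.2) and FOS (9.17). The first 6 lie above the median signal of the array. The order is one of probe set signal and not of RNA amount, since probe sets bind with different strength. Probe sets of the same gene differed in the control by up to 17.7-fold for JUN and 22.6-fold for JUND, and neighbours in the order by at most 6.41-fold, between MAFG and MAFF, so that no neighbours differed beyond this spread. In the knock-down the order was JUND, BATF, JUNB, JUN and MAFG, followed by the other 5 genes in the same order as in the control. With the mean log2 signal of all probe sets of a gene, BATF, JUNB and MAFG came before JUN and JUND.

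**Figure D1:**
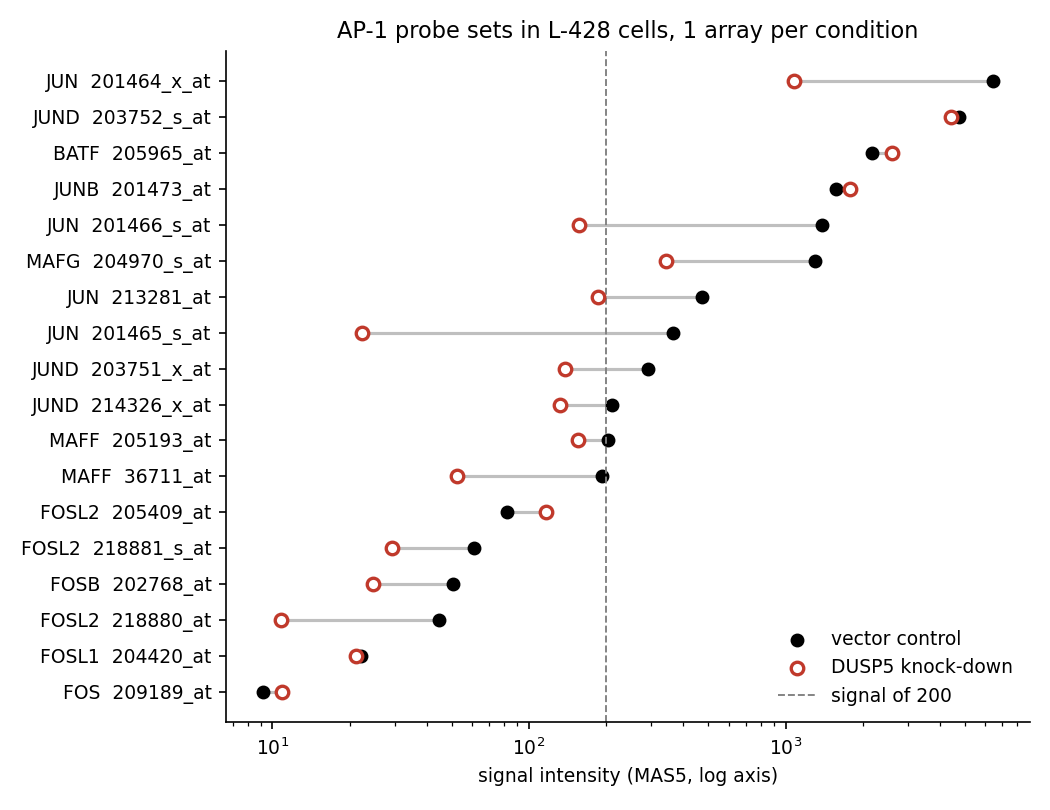
Signal intensity (log axis) of the 18 probe sets of the AP-1 genes in vector control cells (black) and after knock-down of DUSP5 (open red), 1 array each, ordered by signal in the control. The line of each of the 4 JUN probe sets runs far to the left, while both points nearly coincide for JUND 203752_s_at (4745 and 4402).

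JUN, the AP-1 subunit with the strongest transactivation domain among the JUN proteins, was lower on the knock-down array at all 4 of its probe sets. Probe set 201464_x_at gave a signal of 6449 in the control and 1083 in the knock-down, 16.8% of control, and thus a log2 ratio of -2.57 (SD 0.26). At 201466_s_at the signals were 1382 and 156, with a log2 ratio of -3.15 (SD 0.36). The control was thus higher by 5.95-fold at the first and 8.85-fold at the second. Probe set 213281_at had 471 and 186, a log2 ratio of -1.34 (SD 0.41), and was the least changed of the 4. Probe set 201465_s_at had 364 and 22.3, a log2 ratio of -4.03 (SD 0.73), at a mean signal of 193. Its knock-down signal was brighter than only 15.4% of all probe sets, so the size of this ratio is poorly defined, and with 32 added to each signal it was -2.87. The size of the JUN difference therefore varied between probe sets by more than their SD, whereas the direction did not. Of the 10184 probe sets above the signal minimum, 27 (0.265%) had a ratio as low as 201464_x_at, 12 (0.118%) as low as 201466_s_at and 322 (3.16%) as low as 213281_at. The knock-down signals of 201466_s_at (156) and 213281_at (186) were under 200, so these probe sets passed the minimum only through the control. Among the 6301 measured genes, each taken at its brightest probe set, 15 had a ratio as low as JUN, with JUN itself counted. Whether fewer cells with JUN RNA or less JUN RNA per cell underlies a lower signal cannot be told apart in bulk RNA.

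JUNB and JUND, which have weaker transactivation than JUN and can oppose it in some settings, did not follow JUN at their brightest probe sets. The only probe set of JUNB, 201473_at, gave 1571 and 1785, with a log2 ratio of 0.18 (SD 0.30). JUND had 4745 and 4402 at 203752_s_at, a log2 ratio of -0.11 (SD 0.26). Both ratios were smaller than their SD. The dimmer JUND probe sets were lower after knock-down, with 291 and 138 at 203751_x_at (log2 ratio -1.08, SD 0.41) and 210.2 and 132 at 214326_x_at (-0.67, SD 0.73). The JUND probe sets thus differed among themselves, with the brightest within its SD and 203751_x_at beyond it. Probe sets of the type _x_at can bind other transcripts too, which holds for both dim JUND probe sets and for JUN 201464_x_at, while JUN 213281_at is of neither the _x_at nor the _s_at type. The log2 ratio of JUN minus that of JUNB was -2.76 (error 0.40), and minus that of JUND it was -2.47 (error 0.37), where the error combines both SDs. These differences do not depend on the scaling between arrays when 1 factor is used for all genes.

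**Figure D2:**
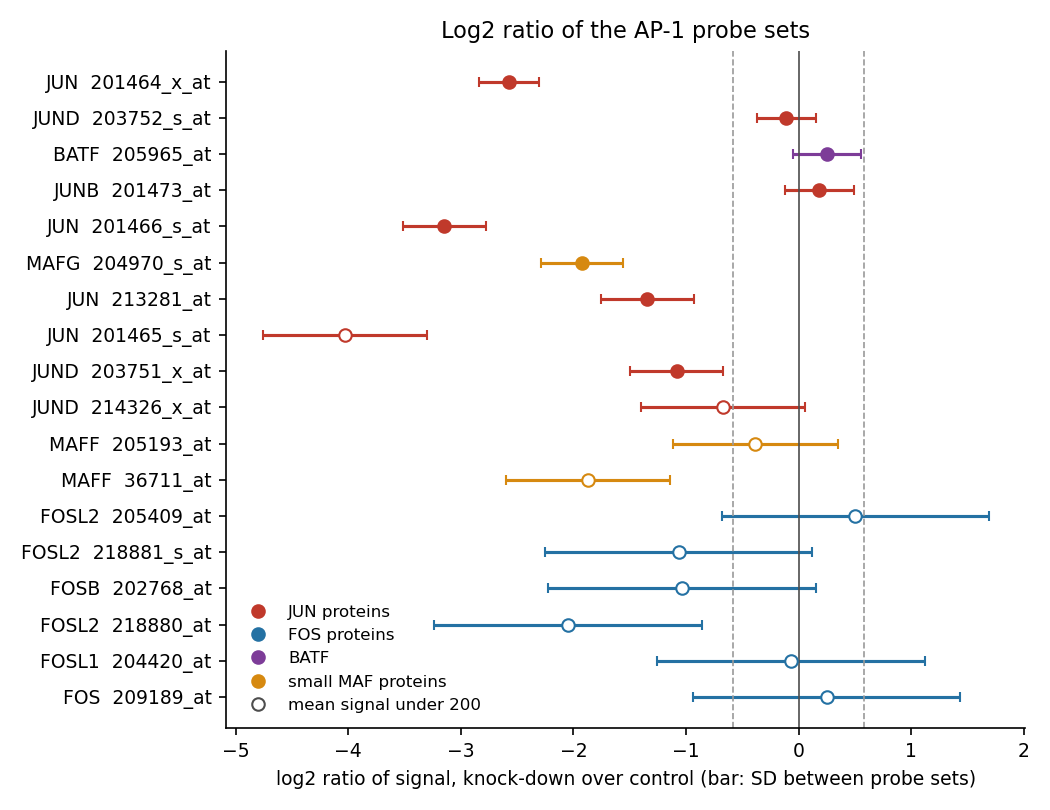
Log2 ratio of signal (knock-down over control) for the 18 probe sets in the order of their control signal, colored by subfamily. Bars are 1 SD as defined in the text, open points have a mean signal under 200, and dashed lines mark 1.5-fold. The 4 JUN points lie between -4.03 and -1.34, left of the dashed line with their bars, as does MAFG at -1.92.

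All 4 FOS genes had signals under the median of their array on both arrays. FOS, the classical immediate early partner of JUN, gave 9.17 and 10.9, brighter than 7.97% and 6.85% of all probe sets. FOSL1 had 22.2 and 21.2, and FOSB had 50.5 and 24.6. Of the 3 probe sets of FOSL2, which lacks the strong transactivation domain of FOS, 205409_at had 82.1 and 116, 218881_s_at had 61.0 and 29.2, and 218880_at had 44.7 and 10.8. The FOSL2 log2 ratios of 0.50, -1.06 and -2.05 went both ways. With an SD of 1.19 at these signals, the ratios of FOS (0.25), FOSL1 (-0.07) and FOSB (-1.04) were smaller than 1 SD, and that of FOSL2 218880_at alone exceeded it. A low signal on this array does not show that a transcript is absent. At this brightness a ratio within 1 SD cannot be told from the spread between probe sets of 1 gene. A ratio beyond 1 SD is no detection either, since 19.2% of all probe sets other than controls were lower and 22.3% higher by more than 1 SD.

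BATF, which pairs with JUN proteins in lymphocytes and acts with IRF4, was bright on both arrays. Its probe set 205965_at gave a signal of 2175 in the control and 2591 in the knock-down, a log2 ratio of 0.25 (SD 0.30). This is within the SD, and 33.2% of the probe sets above the signal minimum had a ratio as high. The ratio of JUN minus that of BATF was -2.83 (error 0.40).

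Both small MAF genes were lower on the knock-down array, MAFG beyond its SD and MAFF beyond it at 1 of 2 probe sets. MAFG, read by 1 probe set (204970_s_at), gave 1297 and 342, 26.4% of control, and thus a log2 ratio of -1.92 (SD 0.36). Of all 6301 measured genes, 56 had a ratio as low, MAFG included. The ratio of JUN minus that of MAFG was -0.65 (error 0.45). The ratio of BATF minus that of MAFG was 2.18, and for JUNB it was 2.11 (error 0.47 each). MAFF has 2 probe sets of similar control signal, which gave different ratios. At 205193_at the signals were 202 and 155 (log2 ratio -0.38, SD 0.73) and at 36711_at 192 and 52.6 (-1.87, SD 0.73). Both probe sets have mean signals under 200, so that MAFF does not count as measured.

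Of the 5 measured genes, JUN and MAFG had fallen in signal by 1.5-fold or more, and none had gained that much. In the background of all 6301 measured genes 19.0% were that much lower and 15.6% that much higher, or 1197 and 981 genes. With log2 ratios centred on their median, which was 0.12 over all probe sets, the background was 1520 lower and 690 higher. Relative to GAPDH, with a median of 0.98 over its 3 probe sets, it was 4752 and 49. JUN and MAFG both had signals above 200 on each array at the probe set used, so neither was counted through the control alone. FOS, FOSB, FOSL1, FOSL2 and MAFF were not measured at this signal. Counting all 18 probe sets, 14 were lower and 4 higher, and the 8 whose ratio exceeded 1 SD were all lower. Of all 22215 probe sets other than controls, 43.3% were lower, 19.2% were lower by more than 1 SD and 22.3% higher by more than 1 SD. Probe sets of 1 gene are not independent, and 4 of the 8 read JUN. These were the 4 JUN probe sets, MAFG, JUND 203751_x_at, MAFF 36711_at and FOSL2 218880_at. The median log2 ratio of the measured members was -0.11, against 0.01 for all measured genes.

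**Figure D3:**
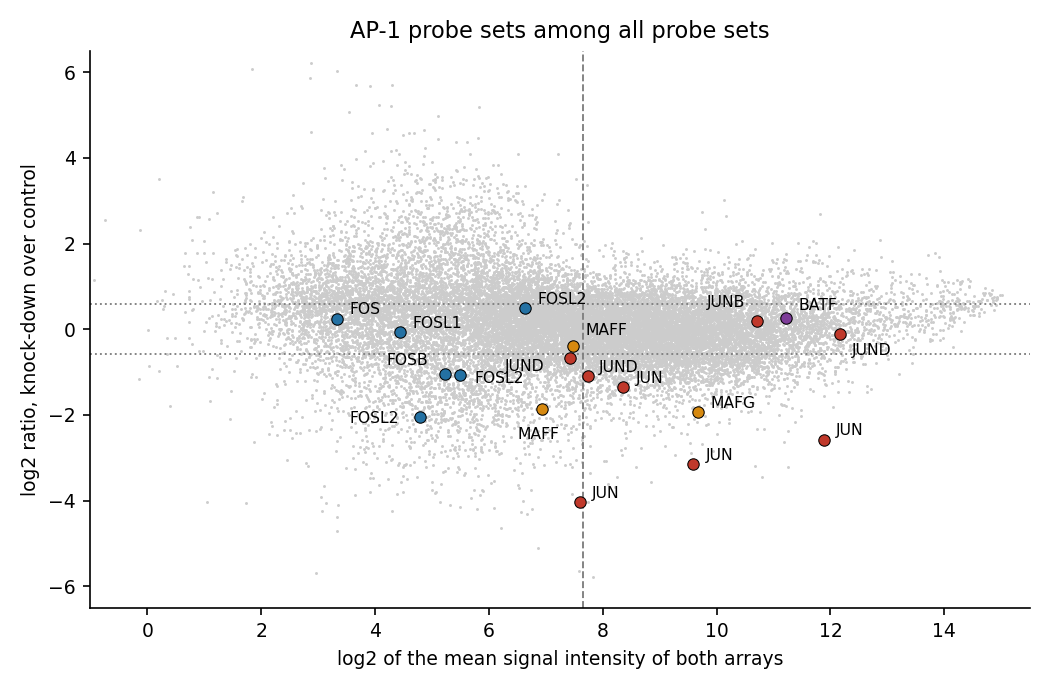
Log2 ratio (knock-down over control) against the log2 of the mean signal intensity for 22215 probe sets (grey), with the 18 AP-1 probe sets colored by subfamily as JUN (red), FOS (blue), BATF (violet) and small MAF proteins (orange). The vertical line marks a mean signal of 200, dotted lines mark 1.5-fold, and 1 grey point lies outside the axes. JUN at 3 of its probe sets and MAFG lie near the lower edge of the grey cloud at their brightness, and the FOS genes lie left of the line where the cloud is widest.

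Scaling of the arrays moved these ratios little, apart from the ratio to GAPDH. Over the ratios as deposited, quantile normalization, median centring, subtraction of a lowess fit and addition of 32 to each signal, JUN at its brightest probe set stayed between -2.70 and -2.54 and MAFG between -2.05 and -1.83. JUNB and BATF had positive ratios of 0.06 to 0.25 in all of these settings. Relative to GAPDH they turned to -0.79 and -0.72, and JUND had -1.08, JUN -3.55 and MAFG -2.90. On that scale 5 of 5 measured genes passed 1.5-fold downward, as were 75.4% of all measured genes.

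**Figure D4:**
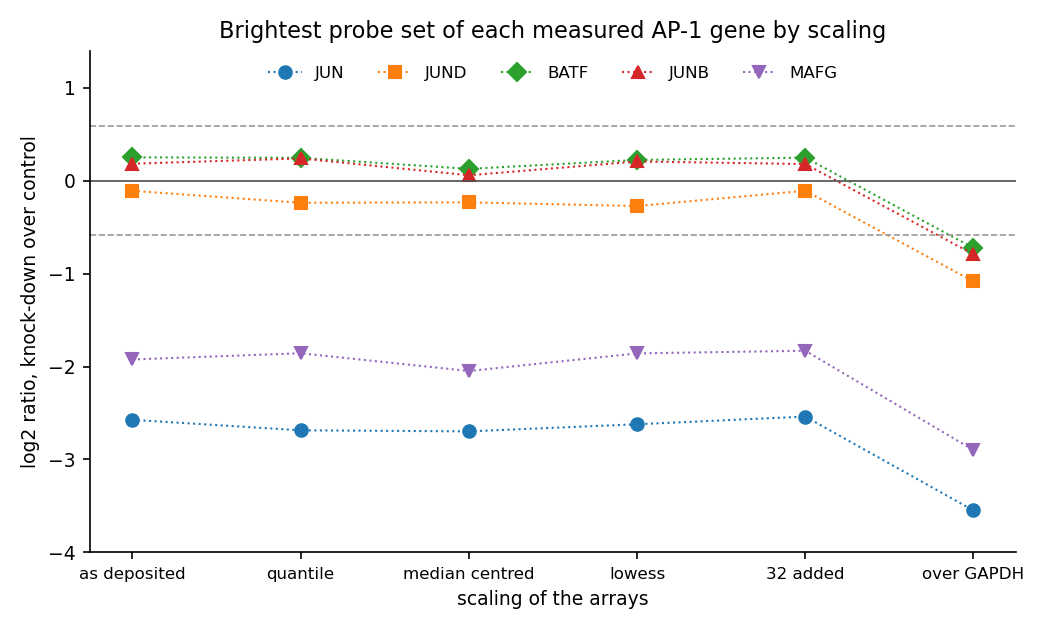
Log2 ratio (knock-down over control) of the brightest probe set of the 5 measured genes under 6 scalings of the arrays, with dashed lines at 1.5-fold. JUN and MAFG lie below the lower line in all 6, whereas JUND, JUNB and BATF lie between the lines in the first 5 and below them relative to GAPDH.

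The wider AP-1 network was described by 8 lists with 79 genes, of which 51 were measured. By the same 1.5-fold rule 13 of these (25.5%) were lower and 8 (15.7%) higher, against 19.0% and 15.6% of all measured genes, so that the higher share was at the background and the lower share near it. Among the 13 lower genes, BACH1, ELK1, ELK3, MRTFA and SPP1 had knock-down signals under 200 and counted as measured only through the control. Every count below uses the 1.5-fold rule and was not tested, and single lists hold few genes. Among genes listed as possible other dimer partners of JUN and FOS, 4 of 8 measured were lower and none was higher, with a median log2 ratio of -0.57. Whether each of them pairs with JUN or FOS was not tested. ATF5 (-0.92) and CREM (-0.80) were lowest, and BATF3 (-0.37), a relative of BATF, and CREB1 (0.40) were highest. BATF3 was bright, with signals of 6054 and 4700. CREB1 was under 1.5-fold only at its brightest probe set, since its other 3 gave 0.74, 1.15 and 1.03, all past 1.5-fold higher. The probe sets of CREM spread from -1.73 to 0.70 and those of ATF5 from -1.56 to 0.25. JDP2 and BATF2 had no probe set with 1 symbol.

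Among the other MAF proteins and their CNC and BACH partners, 3 of 5 measured genes were lower and none was higher, with a median of -0.82. Among all measured genes 19.0% were lower and 15.6% higher. BACH1, a repressor that needs a small MAF protein to bind DNA, was lowest, with 479 and 164 (log2 ratio -1.54, SD 0.41). Its knock-down signal was under 200, so it counted as measured only through the control. NFE2L1, which activates proteasome genes, had -0.86 at its brightest probe set and -0.85 and -0.55 at the other two. NFE2L2 (-0.49), the main regulator of the antioxidant response, and NFE2L3 (0.57) had the highest ratios, both under 1.5-fold. The third small MAF gene, MAFK, had no probe set with 1 symbol.

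Of 7 measured genes listed as regulators of FOS and JUN transcription, 4 were lower and none was higher, beside 19.0% and 15.6% of all measured genes. Their median was -0.72. ELK1, an ERK substrate that acts with serum response factor, had -2.54 at its brightest probe set and -0.55 and -0.85 at its other probe sets. MEF2A, an activator of JUN, had -0.85, with -1.82 and -2.11 at its other probe sets. The highest ratios were those of MEF2C (-0.02) and SRF (-0.35). ELK1 (576 and 99.3), ELK3 (252 and 153) and MRTFA (338 and 194) had knock-down signals under 200. They are among the 4 lower genes and counted as measured only through the control. Other probe sets did not all point down, with 0.57 for SRF, 0.17 for ELK3, and 0.71 and -0.17 for MRTFA, all at mean signals under 200. MEF2C had 0.27 at each of its other probe sets. Of 4 measured kinases of the JNK pathway, which leads to phosphorylation of JUN, none was lower and MAPK10 (0.79) was higher. MAPK8 (0.003), MAPK9 (-0.31) and MAP2K4 (-0.25) lay under 1.5-fold, and the list median was -0.12.

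Of the genes that act in the turnover of JUN and FOS, 2 of 9 measured were higher and none was lower. Among all measured genes the shares were 15.6% higher and 19.0% lower. The list median was 0.28. DDB1, a subunit of the ubiquitin ligase complex that contains COP1, gave 826 and 1525 (0.88), and ZFP36, which destabilizes early response mRNAs, 442 and 697 (0.66). The lowest were SKP1 (-0.17) and the kinase GSK3B (-0.12). The IRF and NFAT factors that bind DNA next to AP-1 had no gene past 1.5-fold among 3 measured, from IRF8 (0.08) through NFATC3 (0.40) to IRF4 (0.48), the partner of BATF, with a median of 0.40. Other probe sets of IRF4 gave 1.12 and 1.23.

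**Figure D5:**
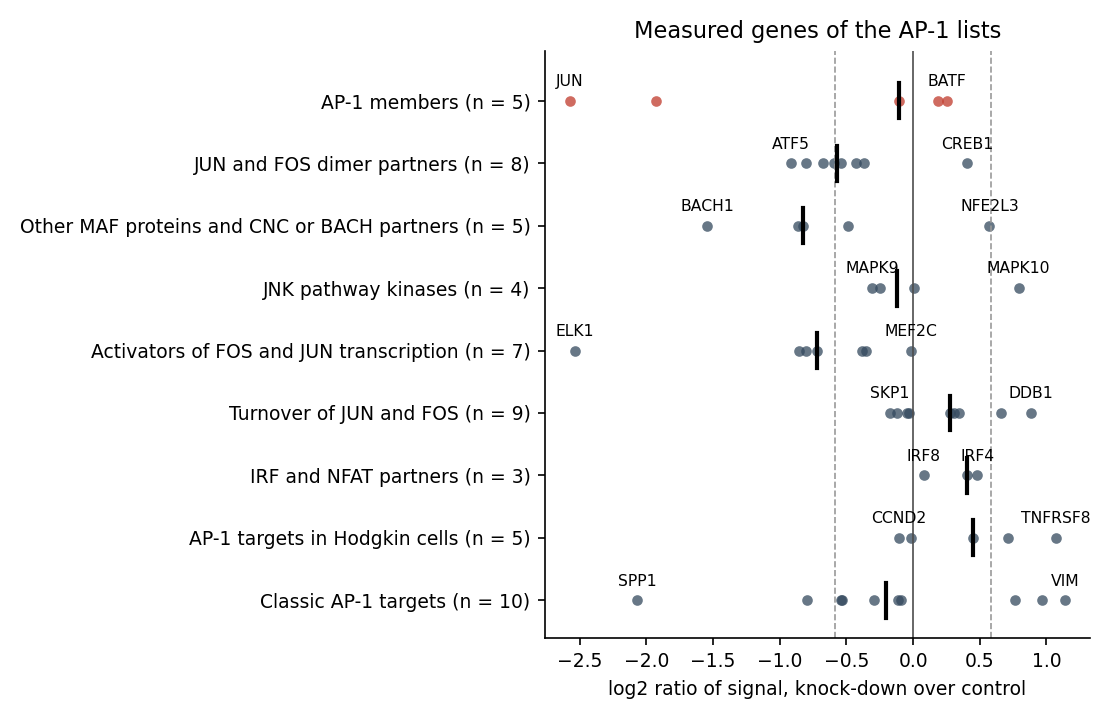
Log2 ratio (knock-down over control) of the measured AP-1 members (red) and of the measured genes of 8 AP-1 lists (dark grey), each gene at its brightest probe set. Black bars are medians, dashed lines mark 1.5-fold and the lowest and highest gene of each list is named. The medians run from -0.82 for the MAF, CNC and BACH list to 0.45 for AP-1 targets in Hodgkin cells.

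Known AP-1 targets went both ways. Of 5 targets described in Hodgkin cells, all measured, none was at least 1.5-fold lower and 2 were higher, with a median of 0.45. Among all measured genes 19.0% were that much lower and 15.6% that much higher. TNFRSF8 encodes CD30, the surface marker of Hodgkin cells that is a target of JUNB, and had signals of 1724 and 3618 (log2 ratio 1.07, SD 0.30). LGALS1, which encodes galectin-1, had 5445 and 8939 (0.72, SD 0.26). The cell cycle gene CCND2 (-0.11) and the chemokine receptor CCR7 (-0.02) had the lowest ratios. These counts hold for the brightest probe sets. Other probe sets of CCND2 gave -0.37 and -0.94, the latter past 1.5-fold lower. In the other direction, the probe sets of MET ran from 0.36 to 0.86, with 0.45 at its brightest. Of 10 measured classical AP-1 targets, 3 were higher and 2 lower, beside the same 15.6% and 19.0% of all measured genes, with a median of -0.20. The intermediate filament gene VIM (1.14) and EZR (0.96, with 0.55 to 0.88 at its other probe sets), which links membrane and actin, were highest. SPP1 (594 and 141, -2.07), a secreted phosphoprotein, and CD44, the hyaluronan receptor, were lowest. The knock-down signal of SPP1 was under 200, so it counted as measured only through the control. CD44 had -0.80 at the probe set used and -2.21 to -0.82 at 6 others, while its dimmest probe set had 0.19. TNFRSF8 is at the same time a marker of Hodgkin cells in the list given above, as is IRF4.

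The measured genes whose 2 signals were most like those of JUN 201464_x_at, by Euclidean distance of log2 signals over the 2 arrays, were CXCL10, PPP1R15A and TRIB3. CXCL10 had signals of 4589 and 1122 (distance 0.49), PPP1R15A 4485 and 1221 (0.55) and TRIB3 4378 and 972 (0.58). Likeness over 2 arrays rests on 2 values per gene, and the signals of different probe sets do not measure the same amount of RNA.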

How the data were processed

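The RNA of 1 vector control and 1 DUSP5 knock-down sample of L-428 cells had been hybridized to HG_U133A microarrays. Signal intensities were deposited on a linear scale. The authors had computed them by MAS5 in Expression Console, with 500 as the target intensity of each array. No detection call entered the results. Probe sets were named from the platform annotation, 19065 with 1 symbol, 1043 with several and 2107 with none, and 68 control probe sets were left out.

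Log2 ratios of the deposited intensities were computed per probe set. Each gene was read at its brightest probe set by mean signal, with a minimum of 200 and a size rule of 1.5-fold. The SD between probe sets came from pairs of probe sets of 1 gene in the same band of signal. The text names all members, DUSP5, the 2 highest and the 2 lowest measured genes of each list and the 3 genes nearest to JUN, the member with the largest ratio. PAX5, ELK3, MRTFA, MET and the genes under Other observations were chosen after their values were seen. The members and lists were chosen with earlier results of these data known. Alternatives were quantile normalization, centring on the median, a lowess fit (span 0.3), ratios to GAPDH, addition of 32 to the signals, no signal minimum, a minimum of 500, a 2-fold rule, the mean of a gene's probe sets above the minimum, and omission of the types _s_at and _x_at. The steps were tested on simulated data. Positions and sequences are from RefSeq (GRCh38.p14). Python 3.11.15, numpy 2.4.6, pandas 2.3.3, statsmodels 0.14.6 and matplotlib 3.10.9 were used. The number of arrays limits the precision of all values.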

Additional observations from a re-analysis of the deposited data

How the results depend on the processing

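JUN was at least 1.5-fold lower in every alternative, and MAFG in all that kept its probe set. The count of lower members was 2, and 5 relative to GAPDH, which by its construction subtracts 0.98 from each log2 ratio, and 1 of 3 without the types _s_at and _x_at, where MAFG and JUND have no probe set left. With the mean of a gene's probe sets above the signal minimum JUND was lower too (3 genes), and with no filter FOSB (3 of 10). For JUND this rests on 203751_x_at (291 and 138, log2 ratio -1.08), which passed the minimum only through the control. The brightest JUND probe set had -0.11. No member was higher in any setting. The wider lists had 8 higher and 13 lower genes as reported, 0 and 38 relative to GAPDH, 2 and 3 at 2-fold, 5 and 7 without the types _s_at and _x_at, 16 higher with no filter and 8 lower at a mean signal of at least 500. The last 4 differ by their construction in the genes tested or the size asked for. In the order by signal, 5 of 10 genes kept their place with the mean of all probe sets, 5 of 8 without the types _s_at and _x_at and 6 of 10 on the knock-down array. Of 90 log2 ratios of the 18 probe sets under 5 alternatives, 76 moved by less than the SD between probe sets and 14 by more, 12 of them relative to GAPDH. No ratio of a measured probe set past 1.5-fold changed its sign. No paired analysis was possible because the labels give 1 sample per group. Low signal over background limits what can be read of the FOS genes and of MAFF.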

Other observations

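Further basic leucine zipper factors, a list added after the data were seen, were mostly lower or within 1.5-fold. Of 21 genes 9 were measured, of which 5 were at least 1.5-fold lower and none higher, with a median log2 ratio of -0.96. Among all measured genes 19.0% were lower and 15.6% higher by this rule. CEBPB, a regulator of inflammatory genes, had the lowest ratio, with signals of 4827 in the control and 1769 in the knock-down (log2 ratio -1.45, SD 0.26). CREBL2 (-1.30), CEBPG (-1.17), the stress-induced factor DDIT3 (-1.04) and the endoplasmic reticulum stress sensor ATF6 (-0.96) were also lower. XBP1 (-0.49), CREB3L2 (-0.39), NFIL3 (-0.21) and CREB3 (-0.19) lay under 1.5-fold.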
